A study of Homo sapiens with 6 samples.

Results

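The 52 genes described here encode subunits of the mitochondrial respiratory chain and ATP synthase, including the electron carrier cytochrome c. They were taken by gene symbol from a table of 57905 gene identifiers, and all 52 were found. Of these, 39 are encoded in the nucleus and 13 in the mitochondrial genome, which are all of its protein-coding genes. Each of the 13 is counted here as a messenger RNA, although MT-ND4L and MT-ND4 lie on a shared messenger RNA, as do MT-ATP8 and MT-ATP6. RNA was measured in the A549 line, which derives from a human adenocarcinoma of the lung. The cells were transfected with miR-19a or with miR-NC, a negative control microRNA, each at 25 nM with Lipofectamine 3000, and were harvested at 24 h. There were 3 miR-19a libraries and 3 miR-NC libraries, made after poly(A) selection and sequenced as paired reads. The labels number the libraries within a group without saying whether each had its own culture, so the p-values reflect only how far these libraries differ from one another, which may be technical.

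The respiratory chain passes electrons from NADH through complex I and from succinate through complex II to coenzyme Q, then through complex III, cytochrome c and complex IV to oxygen, and ATP synthase (complex V) uses the proton gradient that complexes I, III and IV build. Complexes I, III, IV and V each combine subunits translated in the cytosol with subunits translated inside mitochondria, whereas complex II is encoded wholly in the nucleus. Mitochondrial genes are copied as long transcripts of the heavy and light strands that are cut into single RNAs, and MT-ND6 is the only messenger RNA on the light strand. A microRNA lowers messenger RNAs in the cytosol that pair with its seed, mostly through sites in the 3′ UTR.

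The mature miR-19a-3p and the sites it could pair with in the members are shown because they separate the members that carry a seed match from those that do not. Mature miR-19a-3p is encoded at chr13:91350939-91350961 on the plus strand (RefSeq, GRCh38.p14). The capitals in it mark the seed, bases 2 to 8. In the 3′ UTR windows, written 5′ to 3′ as in the messenger RNA with T for U, the capitals mark a 7mer-A1 match, TTGCACA. Its TTGCAC pairs with bases 2 to 7, and its last letter is the A that follows them.
miR-19a-3p: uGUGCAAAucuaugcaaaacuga
NDUFA10: taatgcaaaaaTTGCACAgtggaagaaggg
NDUFS1: aaaacttaaaaTTGCACAaaatttgtcacc
NDUFA9: agggattcaggTTGCACAttacctgattct
The capitals in the NDUFA10 window lie at chr2:239961000-239961006 on the minus strand, beginning 112 bases into a 3′ UTR of 3746 bases. Those of NDUFS1 lie at chr2:206122128-206122134 on the minus strand, 2051 bases into a 3′ UTR of 9368 bases. Those of NDUFA9 lie at chr12:4690171-4690177 on the plus strand, 3063 bases into a 3′ UTR of 7209 bases (GENCODE v29, GRCh38). These were the 3 of 39 nuclear-encoded members, 7.69%, with a match of 7 bases or more to the miR-19a seed in the 3′ UTR of the gene's principal transcript, against 19.88% of 10499 tested genes that had a 3′ UTR. None of the 3 was an 8mer (TTTGCACA) or a 7mer-m8 (TTTGCAC). The members' 3′ UTRs had a median length of 275 bases, against 1109 bases for the tested genes. NDUFS3 held a 7mer-A1 in another annotated transcript, but not in the principal one.

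Library totals lay between 15699037 and 17957932 counts. Of the epithelial markers, KRT7, KRT8, KRT18, KRT19 and CDH1 were above 1 FPKM (fragments scaled for transcript length and library total) and EPCAM was not. The summed level of the 6 was 1849 to 1930 FPKM in miR-19a libraries and 1722 to 1755 FPKM in miR-NC libraries. The markers moved apart: KRT7 (log2 fold change -0.28) and CDH1 (-0.17) fell, whereas KRT8 (0.28), KRT18 (0.38) and KRT19 (0.40) rose. The 4 enzymes typical of A549, which include ALDH1A1, summed to 3818 to 3833 FPKM in miR-19a libraries and 4016 to 4103 FPKM in miR-NC libraries. Of 7 fibroblast markers, 5 (COL1A2, COL3A1, DCN, LUM, PDGFRB) were under 0.1 FPKM, and the 7 summed to 2.99 to 3.69 FPKM in miR-19a libraries and 1.73 to 2.02 FPKM in miR-NC libraries, of which only COL1A1 averaged 1 FPKM or more, with 2.57 FPKM in miR-19a and 0.903 FPKM in miR-NC libraries (log2 fold change 1.52, adjusted p = 2.6e-22 by edgeR). The matched leukocyte and endothelial markers summed to at most 0.24 FPKM in a miR-19a library and 0.25 FPKM in a miR-NC library. Whether these differences play a part in the members' differences was not tested. The comparison answers how the messenger RNAs of the chain differed between miR-19a and miR-NC cells, in bulk RNA, where fewer cells of a kind and less RNA per cell cannot be told apart.

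Respiratory chain messenger RNAs were abundant. Among the members, per-length levels averaged over the 6 libraries ran down from MT-CO2 (9114 FPKM), MT-CO1 (9023 FPKM) and MT-CO3 (8423 FPKM), the catalytic core of complex IV. The other heavy-strand messenger RNAs lay between 1080 FPKM (MT-ND5) and 5258 FPKM (MT-ATP6), and the light-strand MT-ND6 lay at 320.3 FPKM. The nuclear-encoded members lay between 5.46 FPKM (NDUFS7) and 467.5 FPKM (ATP5F1B), so that only ATP5F1B and COX8A (343.3 FPKM) exceeded the lowest mitochondrial messenger RNA. MT-CO1 and MT-CO2, at 8533 ± 178 and 8281 ± 120 FPKM in miR-19a libraries against 9512 ± 538 and 9947 ± 860 FPKM in miR-NC libraries (SD, n = 3), are neighbours in this order whose means lie within 1 miR-NC SD of each other. All 52 members passed the filter of a mean of at least 1 FPKM that left 12452 genes for testing.

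Of the 52 members, 6 rose and 19 fell in miR-19a libraries at an adjusted p under 0.05 (edgeR's quasi-likelihood test, Benjamini-Hochberg adjustment over all genes tested), and 27 did not pass. Together these are 48.1% of the members, against 48.4% of all genes tested, so the share called is near the background. By direction, 11.5% of the members rose, against 24.9% of all genes, and 36.5% fell, against 23.5% of all genes. The miR-19a libraries lay all above the miR-NC libraries for 7 members and all below for 16, whereas over all genes tested 27.6% lay above and 26.4% below, 54% in all. The sizes were small. The median absolute log2 fold change was 0.11 over the members and 0.18 over all genes. An absolute log2 fold change of 0.5 or more was reached by 1 member, NDUFA10 (1.92% of the members, against 13.6% of all genes), and 0.2 or more by 7 members (13.5%, against 46.9%).

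Among the 13 mitochondrially encoded members 9 fell, 1 rose and 3 did not pass, with a median log2 fold change of -0.14. Among the 39 nuclear-encoded members 10 fell, 5 rose and 24 did not pass, with a median of 0.02, against a median of -0.00 over all genes tested. Those that fell were 69.2% of the mitochondrially encoded and 25.6% of the nuclear-encoded members, against 23.5% of all genes. The nuclear share that fell is thus near the background. Those that rose were 7.69% and 12.8%, against 24.9% of all genes. The mitochondrially encoded members are cut from shared long transcripts, so they are not independent of one another. Their shares are therefore not like shares over separate genes. The median of the nuclear-encoded members was -0.01 without miR-NC replicate 2 and -0.0002 with library totals alone as scaling, so its sign depends on that library and on the scaling.

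**Figure D1:**
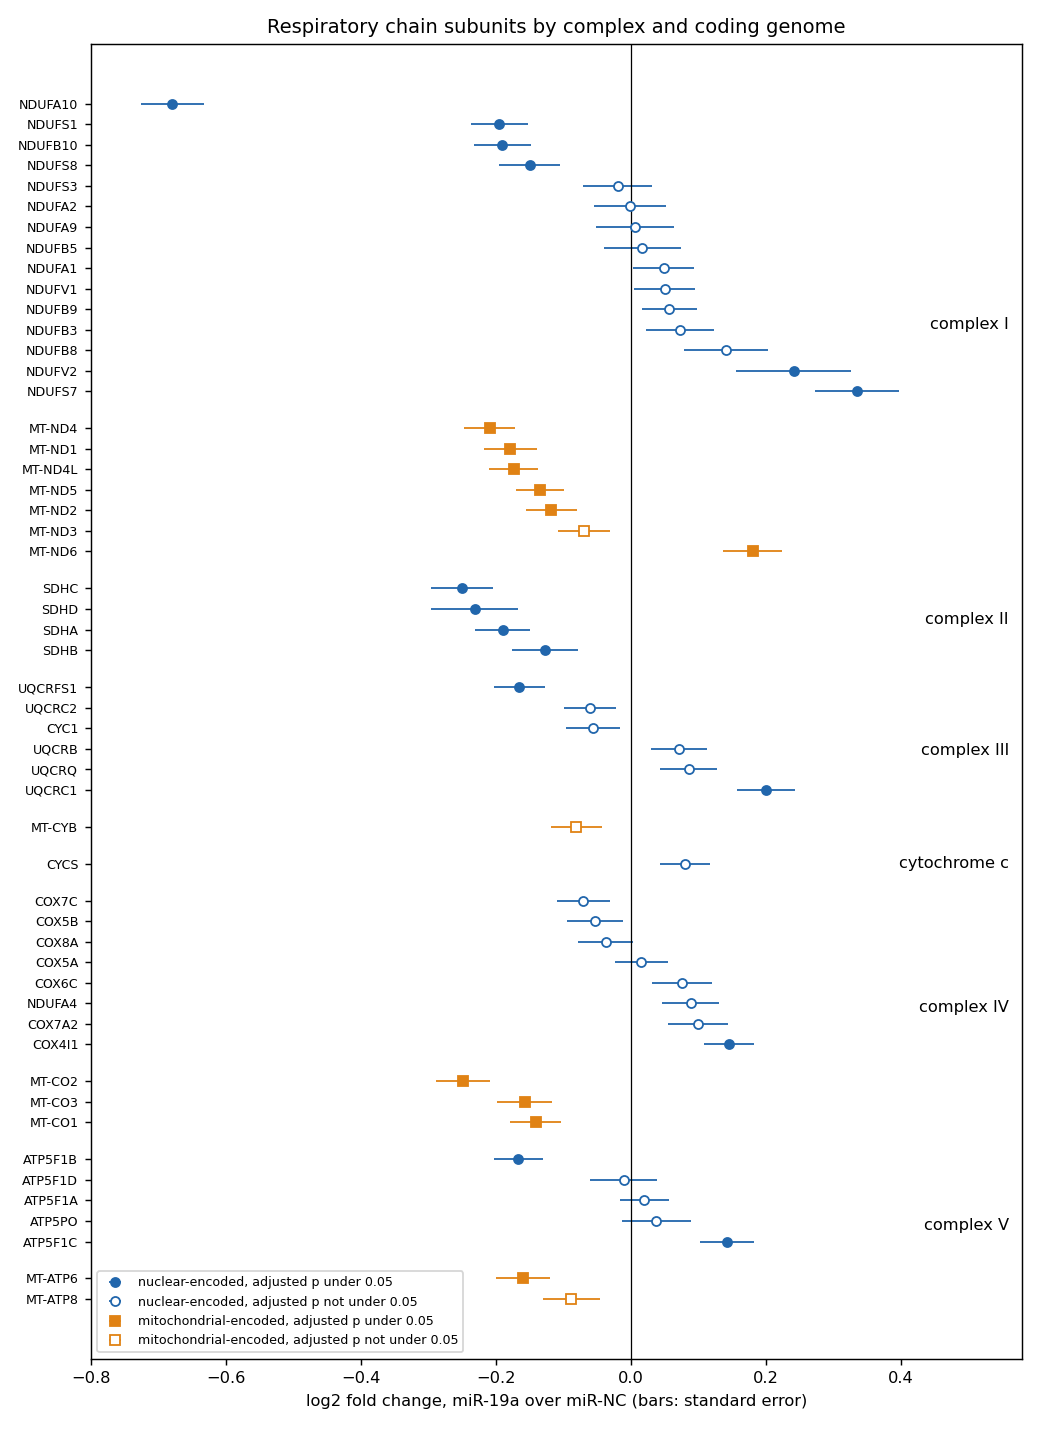
Log2 fold change of CPM, miR-19a over miR-NC, for the 52 members by complex, with standard errors from the fit. Circles are nuclear-encoded and squares mitochondrially encoded genes, filled where the adjusted p is under 0.05. NDUFA10 lies far to the left at -0.68, and MT-ND6 is the only square right of 0.

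Complex I, the NADH dehydrogenase, held the member that fell most. NDUFA10, an accessory subunit of its membrane arm (chr2:239892450-240025402, minus strand, GRCh38), had 76.8, 69.6 and 73.6 CPM (counts scaled to library size with TMM factors) in miR-19a libraries against 116.8, 116.3 and 119.1 CPM in miR-NC libraries. The groups did not overlap, and the highest miR-19a library was well under the lowest miR-NC library. Its log2 fold change was -0.68 (SE 0.05, adjusted p = 3.6e-20 by edgeR), and its level fell by 37.6%. NDUFA10 is one of the 3 members whose 3′ UTR holds the 7mer-A1 shown above.

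The other members with that match behaved differently from it. NDUFS1, the large iron-sulphur core subunit, had 119.5, 120.0 and 120.3 CPM in miR-19a libraries and 140.0, 137.5 and 134.5 CPM in miR-NC libraries. The miR-19a values lay within 1 CPM of each other and under all miR-NC values, and NDUFS1 fell by 0.20 on the log2 scale (SE 0.04, adjusted p = 8.27e-05 by edgeR). NDUFA9, an accessory subunit near the quinone-binding site, had 48.2, 52.2 and 51.3 CPM in miR-19a libraries against 52.4, 47.1 and 51.7 CPM in miR-NC libraries. These values overlapped, and the log2 fold change of NDUFA9 was 0.01 (SE 0.06, adjusted p = 0.945 by edgeR). So 2 of the 3 carriers fell, against 8 of the 36 members without a match and 23.5% of all genes tested. Counts this small were not tested.

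NDUFB10, an accessory subunit of the membrane arm with no seed match, had 131.4, 132.9 and 135.8 CPM in miR-19a libraries against 158.2, 145.6 and 152.9 CPM in miR-NC libraries. The groups were separate, and NDUFB10 fell by 0.19 on the log2 scale (SE 0.04, adjusted p = 1.15e-04 by edgeR). NDUFS8, an iron-sulphur core subunit, fell by 0.15 on the log2 scale (adjusted p = 0.00393), but without miR-NC replicate 1 it was at -0.11 with an adjusted p of 0.0782.

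In the same complex NDUFS7 and NDUFV2, core subunits that carry iron-sulphur clusters, rose. NDUFS7 had 43.0, 47.4 and 47.1 CPM in miR-19a libraries and 38.2, 33.9 and 37.0 CPM in miR-NC libraries, which on the log2 scale is an increase of 0.33 (SE 0.06, adjusted p = 6.43e-06 by edgeR), the largest increase among the members. NDUFV2 had 20.7, 19.2 and 22.4 CPM in miR-19a libraries and 18.04, 18.52 and 16.14 CPM in miR-NC libraries, and was 0.24 higher on the log2 scale (SE 0.08, adjusted p = 0.0147 by edgeR). Neither gene overlapped between groups. The call on NDUFV2 was lost with DESeq2 (0.24, adjusted p = 0.0551). It was also lost when miR-19a replicate 3 was left out (0.18, adjusted p = 0.115) or miR-NC replicate 3 (0.18, adjusted p = 0.0976). Of the counts of NDUFV2 and its pseudogene together, 21.7% were on the pseudogene NDUFV2P1, so the level of NDUFV2 is uncertain. An antisense gene overlaps 35.8% of the exon bases of NDUFS7, and with no strand setting given its reads cannot be told apart from those of NDUFS7; it had 137 counts over the 6 libraries, against 4125 for NDUFS7. The remaining 9 nuclear-encoded members of complex I, NDUFA9 included, had log2 fold changes from -0.02 (NDUFS3) to 0.14 (NDUFB8) and did not pass the test. NDUFB8 passed as higher when miR-19a replicate 2 (0.18, adjusted p = 0.0329) or miR-NC replicate 3 (0.18, adjusted p = 0.027) was left out, and NDUFV1, the subunit that binds NADH, when miR-NC replicate 3 was (0.11, adjusted p = 0.0498).

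All 4 subunits of complex II, succinate dehydrogenase, which links the citric acid cycle to the chain, fell, each with its miR-19a libraries under its miR-NC libraries. Over all genes tested, 23.5% fell and 26.4% had every miR-19a library under every miR-NC library. SDHA, the flavoprotein that oxidises succinate, had 146.3, 149.8 and 150.1 CPM in miR-19a libraries against 167.1, 170.0 and 172.1 CPM in miR-NC libraries (log2 fold change -0.19, SE 0.04, adjusted p = 6.45e-05 by edgeR). SDHC, a membrane anchor that binds haem and quinone, had 84.6, 84.6 and 83.9 CPM in miR-19a libraries against 101.2, 99.9 and 99.9 CPM in miR-NC libraries. The spread of SDHC within a group was under 1 CPM (SD 0.407 in miR-19a and 0.745 in miR-NC libraries, n = 3 each), and the log2 fold change was -0.25 (SE 0.05, adjusted p = 5.13e-06 by edgeR).

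SDHD, the other membrane anchor, had 39.3, 37.2 and 33.9 CPM in miR-19a libraries and 45.6, 39.5 and 44.2 CPM in miR-NC libraries (log2 fold change -0.23, SE 0.06, adjusted p = 0.00198 by edgeR). Its highest miR-19a library and lowest miR-NC library nearly touched. SDHB, the iron-sulphur subunit, had 79.2, 85.3 and 86.8 CPM in miR-19a libraries and 94.6, 87.8 and 92.2 CPM in miR-NC libraries (log2 fold change -0.13, SE 0.05, adjusted p = 0.0243 by edgeR). The call on SDHB depended on the method and on single libraries. With all libraries kept, SDHB missed the threshold with DESeq2 (-0.13, adjusted p = 0.0529). It also missed it by edgeR with no filter beyond 1 count in all (-0.12, adjusted p = 0.0675). Leaving out miR-19a replicate 1 gave -0.09 with an adjusted p of 0.199, leaving out miR-NC replicate 1 gave -0.10 with 0.137, and leaving out miR-NC replicate 3 gave -0.12 with 0.0587. None of the 4 held a seed match of 7 bases in its 3′ UTR. Pseudogenes took 13.98% of the joint counts of SDHA and its copies and 6.27% of those of SDHD, so these levels are less certain than those of SDHB and SDHC.

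**Figure D2:**
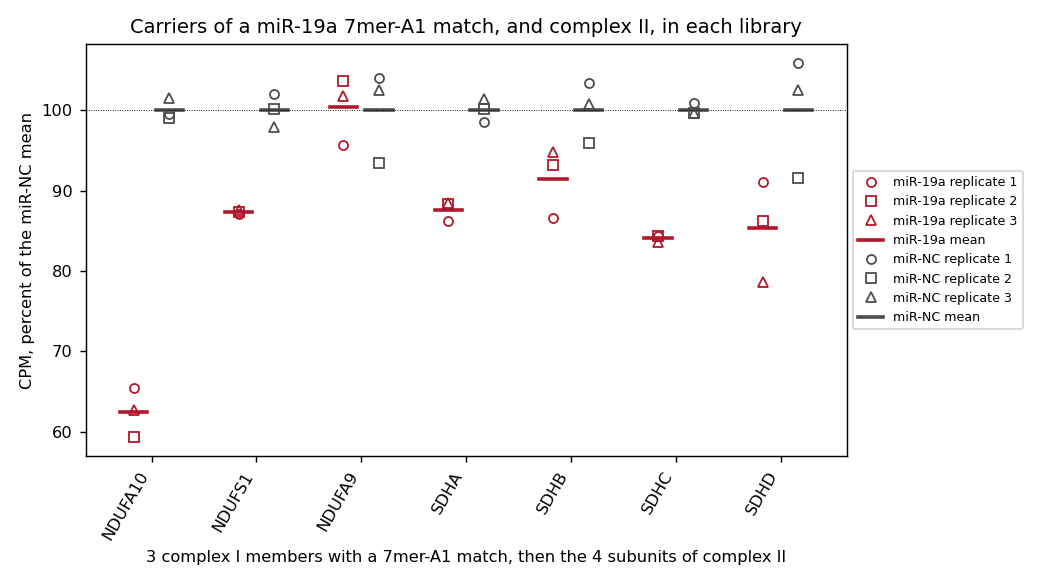
CPM in each library as a percentage of the gene's miR-NC mean, for the 3 members with a miR-19a 7mer-A1 and the 4 subunits of complex II; symbols are single libraries and bars are group means. The miR-19a libraries lie under the miR-NC libraries for every gene shown but NDUFA9, lowest for NDUFA10, whose level fell by 37.6%.

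In complex III, which passes electrons from coenzyme Q to cytochrome c, 1 nuclear-encoded member rose, 1 fell and 4 did not pass. The share called was 33.3%, against 48.4% of all genes tested. UQCRC1, a core subunit, had 176.8, 188.6 and 193.7 CPM in miR-19a libraries against 163.8, 172.1 and 151.2 CPM in miR-NC libraries (log2 fold change 0.20, SE 0.04, adjusted p = 7.5e-05 by edgeR). UQCRFS1, the Rieske iron-sulphur protein, had 248.2, 246.7 and 238.0 CPM in miR-19a libraries against 273.2, 271.1 and 277.6 CPM in miR-NC libraries (log2 fold change -0.17, SE 0.04, adjusted p = 1.88e-04 by edgeR). Both sets of values were separate between groups, in opposite directions. UQCRC2, the partner of UQCRC1 in the core, was at -0.06 (adjusted p = 0.195), CYC1 (cytochrome c1) at -0.06, UQCRB at 0.07 and UQCRQ at 0.09. UQCRQ passed as higher with miR-NC replicate 1 left out (0.13, adjusted p = 0.0224).

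CYCS, cytochrome c itself, had 394.5, 385.9 and 379.3 CPM in miR-19a libraries and 366.4, 355.4 and 374.9 CPM in miR-NC libraries. The miR-19a libraries were all above, but the log2 fold change of 0.08 (SE 0.04) did not pass the test (adjusted p = 0.066 by edgeR). It passed with miR-19a replicate 3 left out (0.09, adjusted p = 0.0453), and likewise with miR-NC replicate 3 left out (0.10, adjusted p = 0.0404).

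In complex IV, cytochrome c oxidase, 1 of 8 nuclear-encoded members rose (12.5%, against 24.9% of all genes tested) and 7 did not pass. COX4I1, a subunit that contacts the catalytic core, had 399.1, 387.4 and 401.7 CPM in miR-19a libraries against 367.5, 339.4 and 367.4 CPM in miR-NC libraries, with no overlap (log2 fold change 0.15, SE 0.04, adjusted p = 9.21e-04 by edgeR). The other 7 had log2 fold changes from -0.07 (COX7C) to 0.10 (COX7A2). NDUFA4, once assigned to complex I and counted here with complex IV, was at 0.09 (adjusted p = 0.0802), and at 0.15 with miR-NC replicate 1 left out (adjusted p = 0.00736). COX6C passed as higher with miR-NC replicate 3 left out (0.12, adjusted p = 0.039). COX7C passed as lower with miR-NC replicate 2 left out (-0.11, adjusted p = 0.0107). COX7A2 passed as higher in 3 of the fits that left out 1 library, with log2 fold changes of 0.12, 0.14 and 0.12 and adjusted p of 0.033 (miR-19a replicate 3 left out), 0.0247 (miR-NC replicate 1) and 0.0388 (miR-NC replicate 3).

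In complex V, 2 of 5 nuclear-encoded members changed (40%, against 48.4% of all genes tested), in opposite directions. ATP5F1B, the catalytic beta subunit, had 1009, 996.2 and 991.3 CPM in miR-19a libraries against 1145, 1071 and 1147 CPM in miR-NC libraries (log2 fold change -0.17, SE 0.04, adjusted p = 7.44e-05 by edgeR). ATP5F1C, the gamma subunit that turns inside the head, had 224.3, 230.1 and 210.8 CPM in miR-19a libraries and 209.4, 197.4 and 195.8 CPM in miR-NC libraries (log2 fold change 0.14, SE 0.04, adjusted p = 0.00241 by edgeR). The groups were separate for both, although the lowest miR-19a and highest miR-NC values of ATP5F1C were close. ATP5F1C missed the threshold with limma on log2(FPKM + 0.1) (0.13, adjusted p = 0.0503). The alpha subunit ATP5F1A, which alternates with the beta subunit in the head, had 378.6, 382.0 and 386.4 CPM in miR-19a libraries and 369.2, 385.1 and 376.9 CPM in miR-NC libraries and did not pass (log2 fold change 0.02, adjusted p = 0.684). ATP5F1D and ATP5PO were at -0.01 and 0.04.

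The 13 mitochondrial messenger RNAs made up 5.00%, 5.01% and 4.88% of all counts in miR-19a libraries and 5.57%, 6.01% and 5.25% in miR-NC libraries. The miR-19a libraries were close together and all lower, and the miR-NC libraries were spread, with replicate 2 highest. Means were 4.96 ± 0.07% in miR-19a and 5.61 ± 0.38% in miR-NC libraries (SD, n = 3 each), a ratio of 0.884. Without miR-NC replicate 2 the ratio was 0.917. The exact binomial intervals of the shares, which cover counting error only, spanned 4.87% to 5.02% over the miR-19a libraries and 5.24% to 6.02% over the miR-NC libraries. The 39 nuclear-encoded members made up 0.684%, 0.681% and 0.681% of counts in miR-19a libraries and 0.720%, 0.676% and 0.714% in miR-NC libraries, where replicate 2 was lowest. There were 7.30, 7.35 and 7.18 mitochondrial messenger RNA counts per count on a nuclear-encoded member in miR-19a libraries and 7.74, 8.89 and 7.36 in miR-NC libraries, so this ratio separated the groups by less than the spread of the miR-NC libraries.

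**Figure D3:**
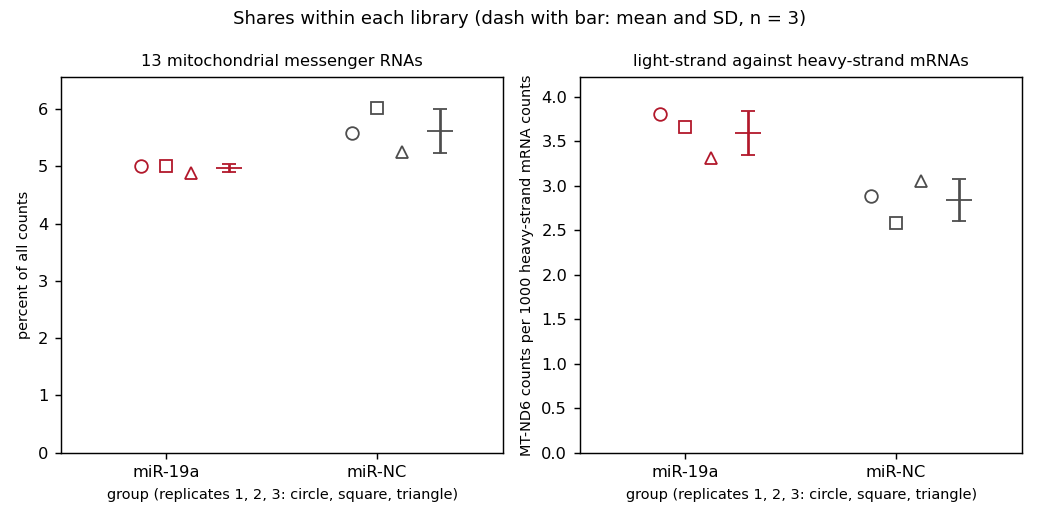
Left, the 13 mitochondrial messenger RNAs as a percentage of all counts in each library. Right, counts on MT-ND6 per 1000 counts on the 12 heavy-strand messenger RNAs. Symbols are single libraries, and the dash and bar are mean and SD (n = 3); the miR-19a libraries lie below the miR-NC libraries on the left (means 4.96% and 5.61%) and above them on the right (means 3.59 and 2.84).

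Among the heavy-strand messenger RNAs, all 3 of complex IV fell in the edgeR test, against 23.5% of all genes tested. MT-CO2, the subunit that takes electrons from cytochrome c, had 5789, 5671 and 5625 CPM in miR-19a libraries against 6726, 7404 and 6175 CPM in miR-NC libraries. This was the largest fall of a mitochondrial messenger RNA (log2 fold change -0.25, SE 0.04, adjusted p = 2.55e-07 by edgeR). MT-CO1, the subunit that reduces oxygen, had 12960, 13490 and 13240 CPM in miR-19a libraries against 14630, 15460 and 13680 CPM in miR-NC libraries (-0.14, adjusted p = 0.00121). Both had every miR-19a library under every miR-NC library. MT-CO3, the third core subunit, had 6387, 6079 and 6261 CPM in miR-19a libraries and 6835, 7692 and 6363 CPM in miR-NC libraries; it passed the test (-0.16, adjusted p = 8.1e-04) although miR-19a replicate 1 lay above miR-NC replicate 3. MT-CO3 missed the threshold with DESeq2 (adjusted p = 0.117) and with limma on log2(FPKM + 1) and log2(FPKM + 0.1) (adjusted p = 0.071 and 0.0675).

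Of the 6 heavy-strand messenger RNAs of complex I, which form its proton-pumping membrane arm, 5 fell, against 23.5% of all genes tested. MT-ND4 had 6707, 6684 and 6472 CPM in miR-19a libraries against 7567, 8199 and 7197 CPM in miR-NC libraries (log2 fold change -0.21, SE 0.04, adjusted p = 3.38e-06 by edgeR). MT-ND1 had 4107, 4131 and 4038 CPM in miR-19a libraries and 4582, 5051 and 4263 CPM in miR-NC libraries (-0.18, adjusted p = 9.49e-05). In both the groups were separate.
MT-ND4L has a reading frame that overlaps that of MT-ND4 by 7 bases, on a shared messenger RNA. It had 1038, 1035 and 958.3 CPM in miR-19a libraries and 1124, 1183 and 1112 CPM in miR-NC libraries (-0.17, adjusted p = 5.67e-05 by edgeR). MT-ND5 had 1885, 1904 and 1807 CPM in miR-19a libraries and 2032, 2101 and 2009 CPM in miR-NC libraries (-0.13, adjusted p = 0.00116). These were separate between groups as well.
MT-ND2 had 3121, 3081 and 2940 CPM in miR-19a libraries and 3250, 3571 and 3100 CPM in miR-NC libraries, which overlapped (-0.12, adjusted p = 0.00836). Its call was lost with miR-NC replicate 2 left out (-0.06, adjusted p = 0.108) or with miR-19a replicate 3 left out (-0.09, adjusted p = 0.073), and 5.31% of the joint counts of MT-ND2 and its nuclear copies were on those copies. MT-ND3 had 937.4, 895.2 and 816.1 CPM in miR-19a libraries and 930.0, 963.9 and 884.7 CPM in miR-NC libraries and did not pass (-0.07, adjusted p = 0.139).

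MT-CYB, the only mitochondrially encoded subunit of complex III, had 2740, 2717 and 2667 CPM in miR-19a libraries and 2881, 3049 and 2662 CPM in miR-NC libraries, which overlapped, and did not pass (log2 fold change -0.08, SE 0.04, adjusted p = 0.0692 by edgeR). The mitochondrially encoded membrane subunits of ATP synthase have 46 bases of overlapping frame on a messenger RNA that they share, so they are not separate transcripts. MT-ATP6, which lines the proton path, had 3413, 3469 and 3263 CPM in miR-19a libraries and 3734, 4149 and 3452 CPM in miR-NC libraries and passed (-0.16, adjusted p = 6.29e-04), but not with DESeq2 (adjusted p = 0.114) or limma on log2(FPKM + 1) and log2(FPKM + 0.1) (adjusted p = 0.0638 and 0.0612). MT-ATP8 had 1006, 942.7 and 865.8 CPM in miR-19a libraries and 973.8, 1090 and 928.5 CPM in miR-NC libraries and did not (-0.09, adjusted p = 0.0752). Both overlapped between groups. Nuclear copies, of which MTATP6P1 had the highest count, took 16.1% of the joint counts of MT-ATP6 and those copies, so reads may have been divided between them.
Leaving out 1 library added calls among these genes: with miR-NC replicate 3 left out, MT-ND3 (-0.10, adjusted p = 0.0412), MT-ATP8 (-0.14, adjusted p = 0.00768) and MT-CYB (-0.13, adjusted p = 0.00352) passed as lower. With miR-19a replicate 1 left out, MT-ND3 (-0.11, adjusted p = 0.0398) and MT-ATP8 (-0.14, adjusted p = 0.0147) passed. Scaling mattered as well: with all libraries, MT-CYB passed as lower with library totals alone (-0.10, adjusted p = 0.0274) and with scaling on nuclear genes only (-0.09, adjusted p = 0.0454), and MT-ATP8 with library totals alone (-0.10, adjusted p = 0.0357). These scalings gave 11 (library totals alone) and 10 (nuclear genes only) mitochondrially encoded members lower, against 9.

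MT-ND6, the light-strand messenger RNA (mitochondrial genome, bases 14149 to 14673, minus strand), rose. It had 190.7, 183.4 and 162.3 CPM in miR-19a libraries against 159.8, 154.9 and 158.3 CPM in miR-NC libraries. The miR-NC libraries agree within 5 CPM and all lie under the miR-19a libraries, of which replicate 3 comes close to them. The log2 fold change was 0.18 (SE 0.04, adjusted p = 3.92e-04 by edgeR). Set against the heavy strand within each library, there were 3.81, 3.66 and 3.32 counts on MT-ND6 per 1000 counts on the 12 heavy-strand messenger RNAs in miR-19a libraries and 2.89, 2.59 and 3.06 in miR-NC libraries. The means were 3.59 ± 0.25 in miR-19a and 2.84 ± 0.24 in miR-NC libraries (SD, n = 3 each), a ratio of 1.26 that does not depend on scaling between libraries. On the authors' FPKM values the increase of MT-ND6 missed the threshold (0.16 on the log2(FPKM + 1) scale, adjusted p = 0.0557 by limma). MT-ND6 is known to lack the poly(A) tail that the other mitochondrial messenger RNAs carry, and with no strand setting given its reads cannot be told apart from those of RNA copied from the opposite strand.

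Library miR-NC replicate 2 was highest of all 6 for the 12 heavy-strand messenger RNAs, so each was refitted without it. The median of the 13 was then -0.09, against -0.14 with all libraries, and 8 of 13 fell. MT-CO2 was at -0.18 (adjusted p = 4.01e-08 by edgeR), MT-ND4 at -0.16, MT-ND4L at -0.15 and MT-ND6 at 0.17 (adjusted p = 3.7e-04). MT-CO3 at -0.08 (adjusted p = 0.0206) and MT-ATP6 at -0.09 (adjusted p = 0.0127) moved most among those that still passed, and without replicate 3 in its place 12 of 13 fell.

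The mitochondrial ribosomal RNAs, which lie first on the heavy strand, differed from each other. MT-RNR2, the large one, had 13410, 13080 and 12700 CPM in miR-19a libraries against 14730, 15440 and 14070 CPM in miR-NC libraries and fell (log2 fold change -0.17, SE 0.04, adjusted p = 5.28e-05 by edgeR). MT-RNR1, the small one, had 970.9, 975.8 and 976.4 CPM in miR-19a libraries and 1018, 1027 and 926.9 CPM in miR-NC libraries and did not pass (-0.02, adjusted p = 0.623). Together they took 1.43%, 1.40% and 1.36% of counts in miR-19a libraries and 1.58%, 1.65% and 1.52% in miR-NC libraries. As in the messenger RNAs, miR-NC replicate 2 was highest. The libraries were made after poly(A) selection, so these counts may not follow the amounts of ribosomal RNA in the cells. Counts on nuclear copies of the ribosomal RNAs were not examined.

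**Figure D4:**
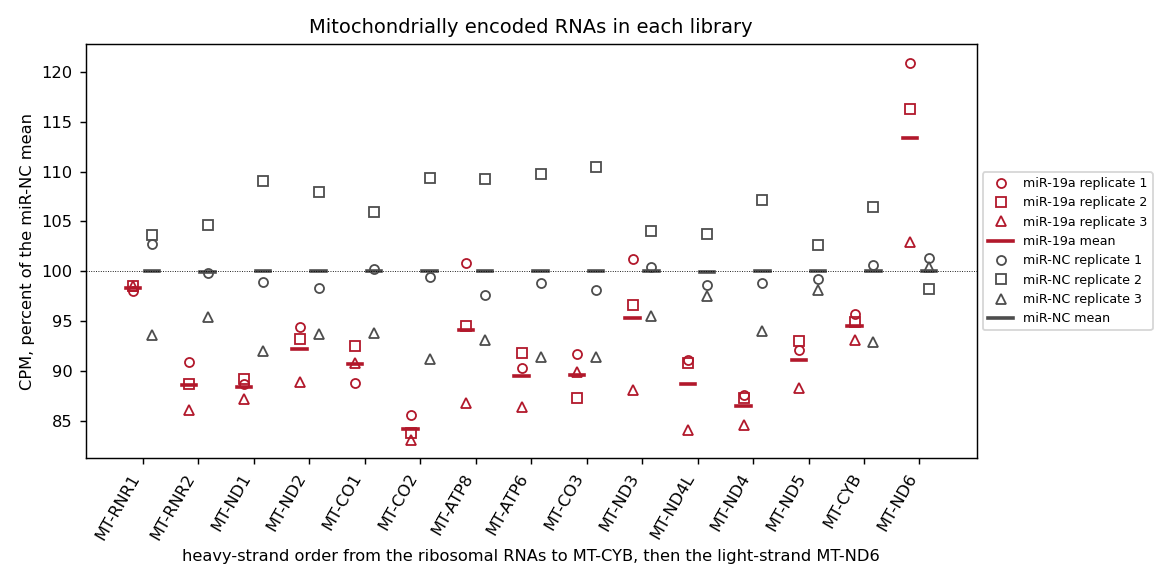
CPM of each mitochondrially encoded RNA in each library, as a percentage of its miR-NC mean, in heavy-strand order followed by MT-ND6. Symbols mark the replicates and bars the group means; miR-NC replicate 2 (grey squares) tops the heavy-strand genes, and only MT-ND6 has a miR-19a mean above 100%.

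The remaining nuclear-encoded subunits, listed by complex, gave 10 that rose, 5 that fell and 25 that did not pass, with a median log2 fold change of 0.05. The 25% that rose is near the 24.9% of all genes tested, and 12.5% fell, against 23.5% of all genes. In complex I, NDUFB2, an accessory subunit of the membrane arm, had 63.6, 67.4 and 72.4 CPM in miR-19a libraries against 104.7, 98.3 and 103.7 CPM in miR-NC libraries. It fell by 0.59 on the log2 scale (SE 0.05, adjusted p = 1.83e-16 by edgeR), next in size to NDUFA10, with no seed match of 7 bases in its 3′ UTR. The accessory subunits NDUFA12 (0.19, adjusted p = 0.00168) and NDUFV3 (0.19, adjusted p = 0.0114) rose. In complex III, UQCR10 rose (0.24, adjusted p = 1.99e-04).
The c subunits of the ATP synthase rotor are made from paralogous genes that encode the same mature protein. ATP5MC3 had 365.2, 358.1 and 370.7 CPM in miR-19a libraries against 315.3, 305.9 and 331.4 CPM in miR-NC libraries and rose (0.20, adjusted p = 8.19e-06 by edgeR). Its 3′ UTR holds a 7mer-A1, and whether that match has a part in its level was not tested. ATP5MC1 had 181.1, 180.3 and 177.4 CPM in miR-19a libraries against 210.6, 184.5 and 210.6 CPM in miR-NC libraries and fell (-0.17, adjusted p = 5.85e-04). ATP5MC2, the third paralogue, named after its values were seen, overlapped between groups and did not pass (-0.01, adjusted p = 0.924). ATP5MK, a small membrane subunit, rose (0.18, adjusted p = 2.28e-04). COX6A1 fell in the fit to all libraries (-0.11, adjusted p = 0.0215), with adjusted p up to 0.0976 when single libraries were left out. None of the 6 tissue-restricted complex IV isoforms reached the level for testing.

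Assembly factors build the complexes without staying in them, and of 50 listed 6 rose and 11 fell. These are 12% and 22% of the list, against 24.9% and 23.5% of all genes tested, so the share that fell is near the background. NDUFAF5, which modifies NDUFS7 during assembly, had 17.5, 19.1 and 17.3 CPM in miR-19a libraries against 25.6, 22.2 and 26.2 CPM in miR-NC libraries (log2 fold change -0.46, SE 0.08, adjusted p = 2.77e-06 by edgeR). UQCC3, a complex III factor, had 34.6, 38.2 and 40.1 CPM in miR-19a libraries against 51.73, 47.08 and 52.02 CPM in miR-NC libraries (-0.42, adjusted p = 4.44e-08), and SDHAF3, a complex II factor, was at -0.41 (adjusted p = 2.36e-04). ATPAF1, the chaperone of the beta subunit ATP5F1B, fell (-0.33, adjusted p = 2.51e-05) and its 3′ UTR holds an 8mer, while ATPAF2, the chaperone of the alpha subunit, rose (0.23, adjusted p = 0.01). DMAC1 (-0.24) and COA4 (-0.23) fell too. The increases of ECSIT (0.18, adjusted p = 0.0321), TTC19 (0.14, adjusted p = 0.0329), COX17 (0.15, adjusted p = 0.0254) and ATPAF2 were lost when single libraries were left out, with adjusted p up to 0.228, 0.121, 0.373 and 0.0772 over all alternatives.

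Genes for mitochondrial RNA processing and stability gave 10 that fell and 6 that did not pass, of 16 tested, with a median log2 fold change of -0.19. Those that fell are 62.5% of the list, against 23.5% of all genes tested. This list, like the other lists, was chosen with earlier results of these data known, so such shares are descriptions only. GRSF1, an RNA-binding protein of mitochondrial RNA granules known to bind light-strand transcripts such as MT-ND6, had 67.6, 75.2 and 68.4 CPM in miR-19a libraries against 117.1, 120.7 and 119.1 CPM in miR-NC libraries. It fell by 0.76 on the log2 scale (SE 0.05, adjusted p = 4.41e-22 by edgeR). Its 3′ UTR of 5105 bases holds a pair of 8mers, shown because no subunit in the list of members carries one.
GRSF1 site at chr4:70820833-70820840, minus strand: gaagcatttcaTTTGCACAtctttcttgga
GRSF1 site at chr4:70819167-70819174, minus strand: aatgagttttaTTTGCACAtctctggaaaa
FASTK, whose mitochondrial form is known to be needed for MT-ND6 messenger RNA, had 49.2, 50.5 and 54.9 CPM in miR-19a libraries against 72.7, 70.8 and 76.6 CPM in miR-NC libraries (-0.51, SE 0.05, adjusted p = 1.93e-12) and has a 7mer-m8. LRPPRC and SLIRP, which act as a complex that is known to stabilise the heavy-strand messenger RNAs, were singled out after their values were seen. LRPPRC had 256.1, 263.4 and 249.2 CPM in miR-19a libraries against 312.6, 318.1 and 320.6 CPM in miR-NC libraries (-0.31, SE 0.04, adjusted p = 2.08e-10 by edgeR). SLIRP had 81.1, 81.7 and 74.2 CPM in miR-19a libraries against 94.6, 85.2 and 93.5 CPM in miR-NC libraries (-0.21, SE 0.05, adjusted p = 3.73e-04). All 4 genes had their miR-19a libraries under their miR-NC libraries. Whether any of them has a part in the levels of the mitochondrial messenger RNAs was not tested. In the whole list, 3 of the 16 tested genes (18.75%) held a match of 7 bases or more. That share is near the 19.88% of tested genes with a 3′ UTR, and LRPPRC and SLIRP, which fell, held no such match.

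Of 13 genes for maintaining and transcribing mitochondrial DNA 6 fell and 1 rose, with a median of -0.16. In all 53.8% of the list was called, against 48.4% of all genes tested, with 46.2% lower against 23.5% of all genes. MTERF3, a repressor of mitochondrial transcription, had 17.9, 18.5 and 19.2 CPM in miR-19a libraries against 27.4, 23.6 and 27.9 CPM in miR-NC libraries (log2 fold change -0.50, SE 0.08, adjusted p = 2e-07 by edgeR). TWNK, the replicative helicase, had 38.5, 36.7 and 32.4 CPM in miR-19a libraries against 45.3, 47.5 and 48.2 CPM in miR-NC libraries (-0.39, adjusted p = 3.11e-07). TFAM, which packages mitochondrial DNA and starts its transcription, went the other way, with 98.9, 101.4 and 93.1 CPM in miR-19a libraries against 79.6, 82.9 and 87.5 CPM in miR-NC libraries (0.23, SE 0.05, adjusted p = 4.59e-05). The groups were separate for all 3.

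**Figure D5:**
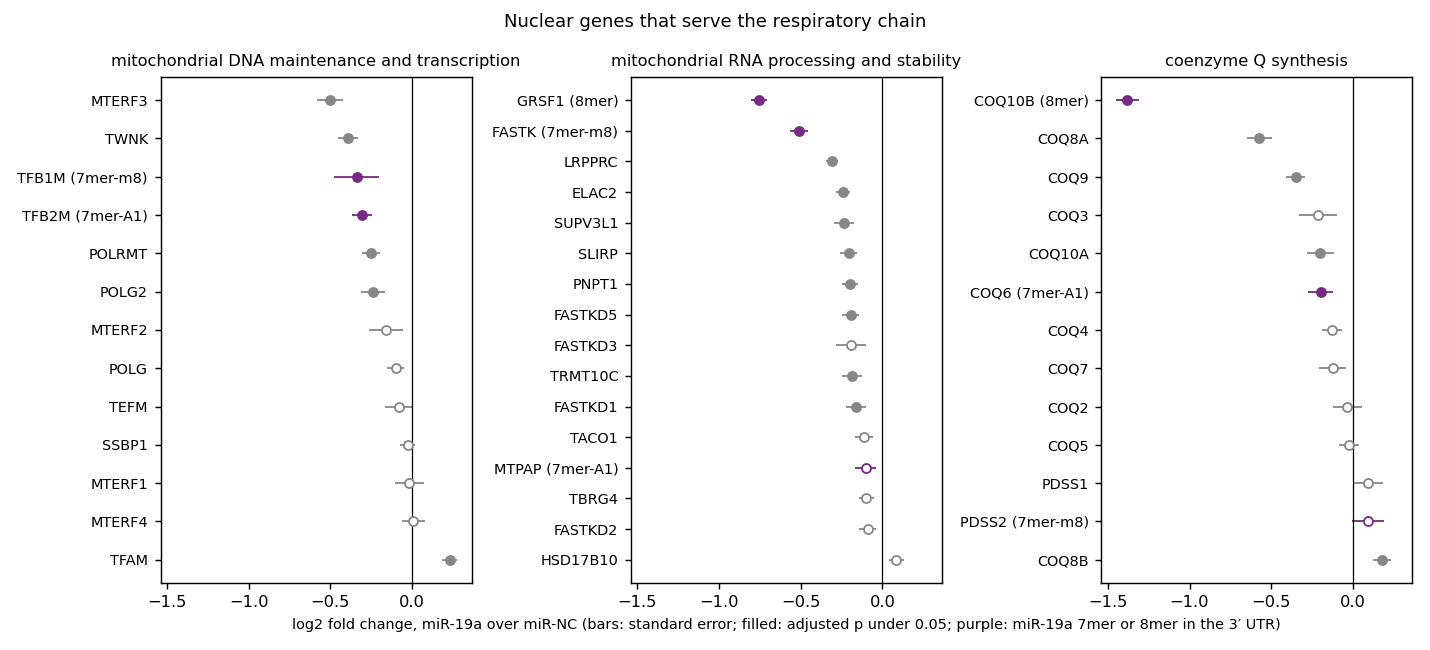
Log2 fold change of CPM, miR-19a over miR-NC, with standard errors, for the genes of mitochondrial DNA maintenance and transcription (left), mitochondrial RNA processing and stability (middle) and coenzyme Q synthesis (right). Filled points have an adjusted p under 0.05 and purple marks a miR-19a match of 7 bases or more in the 3′ UTR; COQ10B at -1.38 and GRSF1 at -0.76 lie farthest to the left, and TFAM and COQ8B are the filled points right of 0.

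Coenzyme Q carries electrons between complexes I or II and III, and of 13 genes for its synthesis and handling 5 fell and 1 rose. In all 46.2% of the list was called, near the 48.4% of all genes tested, with 38.5% lower against 23.5% of all genes. COQ10B, a protein that binds coenzyme Q, had 16.52, 16.30 and 15.96 CPM in miR-19a libraries against 41.16, 40.88 and 45.02 CPM in miR-NC libraries. It fell by 1.38 on the log2 scale (SE 0.07, adjusted p = 4.02e-26 by edgeR), the largest fall among the genes named here. Its 3′ UTR holds an 8mer.
COQ10B site at chr2:197474061-197474068, plus strand: accattgaaaaTTTGCACAtagaatataga
COQ8A, an atypical kinase needed for synthesis, fell (-0.57, adjusted p = 2.22e-09), and its paralogue COQ8B rose (0.18, adjusted p = 0.00345). Both had separate groups, in opposite directions.

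Of 7 tested nuclear regulators of respiratory genes, 5 did not pass and 28.6% were called, against 48.4% of all genes tested. PPARGC1B, a coactivator of mitochondrial genes, had 20.8, 19.7 and 19.4 CPM in miR-19a libraries against 16.1, 14.4 and 15.6 CPM in miR-NC libraries and rose (log2 fold change 0.37, SE 0.09, adjusted p = 1.95e-04 by edgeR). Its 3′ UTR holds an 8mer, and whether that match has a part in its level was not tested. On the log2(FPKM + 0.1) scale PPARGC1B missed the threshold (adjusted p = 0.0564 by limma). NRF1, a transcription factor of many respiratory genes, had 13.3, 14.1 and 13.2 CPM in miR-19a libraries and 15.8, 14.7 and 16.8 CPM in miR-NC libraries. Its fall (-0.22, SE 0.09) lay at the threshold (adjusted p = 0.0496), with adjusted p from 0.0269 to 0.187 over the alternatives. Promoter windows from 250 bases before to 50 bases after the start (RefSeq) were at hand for 30 of the 39 nuclear-encoded members. The NRF1 motif, GCGCA and GCGC with any 1 base between them, searched on both strands, was in 7 of the 30 (23.3%), against 12.8% of tested genes with a window and 6.28% of all windows. The 7 were NDUFA9, SDHA, SDHD, UQCRC1, UQCRFS1, ATP5F1C and ATP5PO, of which 3 fell, 2 rose and 2 did not pass. The ETS motif CCGGAAG, searched likewise, was in 9 of the 30 (30%), against 20.9% of tested genes and 10.7% of all windows. Of these 9 members, 3 fell (NDUFS1, SDHB and SDHD), 1 rose (COX4I1) and 5 did not pass. For comparison, 38.5% of the 39 nuclear-encoded members and 48.4% of all genes tested were called in either direction. Whether either motif has a part in the calls was not tested.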

How the data were processed

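The deposited table lists 57905 gene identifiers and, per the file headers, pairs unnormalized read counts with FPKM in each of 6 libraries; the authors' counts are not normalized, and the authors' FPKM values are scaled for length and library total. The submitters' processing notes name bcl2fastq 2.17.1.14 for demultiplexing; alignment, counting, build, annotation and strand setting are steps not given in the sources used here. Symbols came from a gene name table for 51996 identifiers and from GENCODE v29 for 342. All 52 members and 171 of 172 list genes matched.

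The 12452 genes that averaged 1 FPKM or more across the 6 libraries were fitted together with edgeR 4.0.16 (R 4.3.3; quasi-likelihood test, two-sided, TMM factors from 0.9938 to 1.01, no covariates), with Benjamini-Hochberg adjustment over all of them and a threshold of 0.05; the procedure was tested on simulated data. CPM are TMM-scaled, and each standard error is the size of the log2 fold change divided by the root of the F statistic. Alternatives were DESeq2 1.42.0, limma 3.58.1 on log2(FPKM + 1) and log2(FPKM + 0.1), other scalings and filters, a replicate block and leaving out each library. Shares have exact (Clopper-Pearson) 95% intervals, which cover counting error only.

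3′ UTRs come from GENCODE v29 transcripts (APPRIS principal, then longest coding sequence), and miRNA and promoter sequences from RefSeq GRCh38.p14. Chromosome 8 members were searched for matches, and none of their sequence is printed. The members and lists were chosen with earlier results of these data known. Named in full were the 13 mitochondrial messenger RNAs, up to 3 nuclear-encoded members per complex and direction with the smallest adjusted p, CYCS, members with a 7mer or 8mer, and from each list at most 2 genes per direction; NDUFS8, SDHB, ATP5F1A, LRPPRC, SLIRP and ATP5MC2 were added outside this rule after their values were seen.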

Additional observations from a re-analysis of the deposited data

How the results depend on the processing

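Of the 25 members that passed, 17 stayed past the threshold in the same direction under all 16 alternatives, and none reversed. The others, NDUFS8, NDUFV2, SDHB, ATP5F1C, MT-ND2, MT-ND6, MT-CO3 and MT-ATP6, lost their call under at least 1, and 11 of the 27 that had not passed did so under at least 1. The number of mitochondrially encoded members called higher was 0 with limma on log2(FPKM + 1) or log2(FPKM + 0.1), against 1 by edgeR, since MT-ND6 then had an adjusted p of 0.0557 and 0.0559 (1 member at an unadjusted p under 0.05). DESeq2 and both limma fits called 6 mitochondrially encoded members lower, against 9, since MT-ND2, MT-CO3 and MT-ATP6 no longer passed.

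With single libraries left out, 5 to 9 nuclear-encoded members were higher (8 without miR-NC replicate 1, 9 without miR-NC replicate 3) and 8 to 11 lower, and 8 to 12 mitochondrially encoded members were lower. Their median log2 fold change ran from -0.19 to -0.09, that of the nuclear-encoded members from -0.01 to 0.03, and the ratio of mitochondrial messenger RNA shares from 0.857 to 0.917. The ratio was 0.910 on FPKM sums. Genes called in all ran from 5325 to 5784, against 6023.

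With the replicate number as a block, 7 nuclear-encoded members were higher and 10 lower, 10 mitochondrially encoded members were lower and 1 higher, and 5986 genes passed in all; NDUFA4 (adjusted p = 0.0489), COX7A2 (0.0481) and MT-ATP8 (0.0345) were the members that gained a call. Same-numbered libraries deviated with correlations of -0.00449, 0.00944 and -0.037, so the numbers pair nothing that shows in the data. With 3 libraries per group, differences as small as the members' median lie near the limit of what passes the test.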
